A study of Mus musculus with 26 samples.

Results

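Sec23a, Herpud1, Rbm28 and Rcc1 are 4 of the 24682 gene symbols counted in this mouse testis series. They were chosen by their counts in sorted germ cells, because the effect of the Nkapl knockout on them differs between round spermatids and pachytene spermatocytes. All 4 genes passed the filter on low counts in every comparison. They act in separate parts of the cell. Sec23a encodes an inner coat protein of COPII vesicles, which carry newly made proteins out of the endoplasmic reticulum (ER). Herpud1 encodes a membrane protein of the ER that serves the removal of misfolded proteins and is a known target of the unfolded protein response. Rbm28 encodes an RNA-binding protein of the nucleolus whose yeast relative is needed to make the large ribosomal subunit. Rcc1 encodes the chromatin-bound exchange factor that loads Ran with GTP, and the Ran gradient it sets up drives transport through nuclear pores and spindle assembly.

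Pachytene spermatocytes are meiotic cells with high transcription. Round spermatids are the haploid cells that follow, in which the acrosome is built from secretory vesicles and transcripts are stored for the later, transcriptionally silent steps. Nkapl is a germ cell relative of the transcription and splicing cofactor gene Nkap.

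The sorted libraries are round spermatids and pachytene spermatocytes from Nkapl knockout and wild-type mice, with 2 libraries in each of the 4 groups. The other libraries are C57BL/6 testes from postnatal day 21: Nkapl knockout (2 libraries) with wild type (3), Sox30 knockout (2) with wild type (3), and homozygous Nkapl TGdel (3) with wild type (2). The series title names a frameshift mutation of NKAPL beside the knockout, and what sequence the knockouts lack is not stated. The sorted samples carry the same day in their titles and no strain, and the way the cells were sorted, how many mice gave them and the breeding of the wild types are not given in the labels. Nothing in the labels says which libraries came from separate animals, although the design text speaks of biological replicates, so p-values measure the spread between these libraries. Counting noise alone gives a chi-square of about 1 per gene between 2 libraries. It was 1.85 in knockout and 2.61 in wild-type spermatids, and 1.45 and 5.2 in spermatocytes labelled knockout and wild type. Testis pairs of 1 group gave 1.97 to 44.6. If sorted pairs share mice, their p-values say nothing of other mice. Counts come from stranded total RNA libraries, with 16469667 to 40010106 counts each.

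Libraries were named by the heading inside each file, which for 4 testis libraries names another group than the file's record does: Nkapl wild type 3, Sox30 wild type 3, TGdel 3 and wild type 2 of the TGdel set. The level of Nkapl itself goes with the labels of the spermatids and against those of the spermatocytes. It was 24.6 and 23.6 CPM (counts relative to library size, after scaling by the trimmed mean of M-values, TMM) in knockout spermatids, against 88.4 and 90.3 CPM in wild-type spermatids. It was 127 and 125 CPM in spermatocytes labelled knockout, against 90.1 and 86.1 CPM in those labelled wild type (log2 difference 0.51 ± 0.05 SE, adjusted p = 3.26e-09). In testis Nkapl measured 60.8 and 57.8 CPM in the knockout and 74.9, 79.5 and 79.9 CPM in its wild type (log2 -0.40 ± 0.05, adjusted p = 2.96e-06). That call was lost in a fit of all testis libraries (-0.37, adjusted p = 0.0517) and with libraries grouped by file record (-0.22, adjusted p = 0.629). With the TGdel allele its log2 difference was 0.20 ± 0.09 (adjusted p = 0.328). Spermatocytes are therefore called by their label below. The 18 pachytene spermatocyte markers tested summed to 2747 and 2763 CPM in knockout spermatids and 2712 and 2715 CPM in wild-type spermatids, against 3999 to 4662 CPM in the 4 spermatocyte libraries. The sum of 18 round spermatid markers was 5493 and 5450 CPM in knockout spermatids and 11780 and 11420 CPM in wild-type spermatids. It was 2184 and 2163 CPM in spermatocytes labelled knockout and 4577 and 4808 CPM in those labelled wild type. In each cell type 17 of these 18 markers fell with the knockout label (edgeR quasi-likelihood test), and none was at 0. Macrophage markers summed to 46.9 and 45.1 CPM in knockout spermatids and 19.0 and 19.8 CPM in wild-type spermatids, with 8 of 9 called higher, and Leydig cell markers to 24.4 and 25.8 CPM against 9.61 and 9.44 CPM, with 6 of 7 tested called higher. In spermatocytes Leydig cell markers summed to 71.5 and 77.0 CPM with the knockout label and 56.1 and 57.3 CPM with the wild-type label (5 of 7 tested higher, 1 lower), and macrophage markers to 12.8 and 12.7 CPM against 13.01 and 11.6 CPM. Sertoli cell markers summed to 45.2 and 42.1 CPM in knockout spermatids and 34.6 and 34.3 CPM in wild-type spermatids (2 of 14 higher). They summed to 189 and 192 CPM in spermatocytes labelled knockout and 289 and 308 CPM in those labelled wild type (8 of 14 lower). Peritubular myoid markers summed to 114 and 114 CPM in knockout spermatids and 247 and 243 CPM in wild-type spermatids (2 of 5 tested lower), and to 41.5 and 45.1 CPM in spermatocytes labelled knockout and 110 and 111 CPM in those labelled wild type (1 of 5 tested lower). Spermatogonia markers summed to 66.3 and 67.0 CPM in knockout and 45.1 and 46.2 CPM in wild-type spermatids (6 of 11 higher, 1 lower). In spermatocytes labelled knockout 5 of the 11 were higher and 1 lower. Of all genes 29% were called higher and 31% lower in spermatids, and 33.6% and 25.7% in spermatocytes. Reads assigned to no gene, for any reason, were 24.5% and 24.6% in the files of knockout spermatids and 19.4% in both of wild-type spermatids. They were 23.5% and 23.2% in spermatocytes labelled knockout and 20% and 18.8% in those labelled wild type. The part of these values in the results below was not tested. In bulk libraries, fewer cells of a type and less RNA per cell cannot be told apart.

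The genes lie on 4 chromosomes of GRCm38 (GENCODE M21), all as protein-coding genes: Sec23a on chromosome 12 at 58958383 to 59012017 on the minus strand, Herpud1 on chromosome 8 at 94386438 to 94395377 on the plus strand, Rbm28 on chromosome 6 at 29123576 to 29165006 on the minus strand, and Rcc1 on chromosome 4 at 132331919 to 132353605 on the minus strand. Because the 4 genes moved together in spermatids, their start regions are shown, from 250 bases before to 50 after the RefSeq start (GRCm38.p6, written 5′ to 3′ on the gene's strand). Capitals mark letters of 4 motifs on either strand: the short form of the cAMP response element (TGACG, the core bound by CREM, a known activator of spermatid genes), the unfolded protein response element (TGACGTGG), the CCAAT box, and the ER stress element II (ATTGGNCCACG, which holds a CCAAT box on its other strand).

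Sec23a, chr12:59011968-59012267, minus strand: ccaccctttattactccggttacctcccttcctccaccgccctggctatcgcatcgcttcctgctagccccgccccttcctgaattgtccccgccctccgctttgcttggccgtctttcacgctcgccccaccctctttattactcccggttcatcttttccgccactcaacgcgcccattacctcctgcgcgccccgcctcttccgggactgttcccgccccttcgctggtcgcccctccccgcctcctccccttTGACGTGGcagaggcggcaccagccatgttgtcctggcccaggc

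Herpud1, chr8:94386179-94386478, plus strand: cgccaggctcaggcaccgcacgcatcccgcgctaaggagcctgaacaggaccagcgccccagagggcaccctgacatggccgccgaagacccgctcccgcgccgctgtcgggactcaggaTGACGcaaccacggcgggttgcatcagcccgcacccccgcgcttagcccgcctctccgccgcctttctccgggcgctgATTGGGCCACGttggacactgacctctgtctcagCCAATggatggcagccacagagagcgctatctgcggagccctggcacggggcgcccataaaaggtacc

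Rbm28, chr6:29164675-29164974, minus strand: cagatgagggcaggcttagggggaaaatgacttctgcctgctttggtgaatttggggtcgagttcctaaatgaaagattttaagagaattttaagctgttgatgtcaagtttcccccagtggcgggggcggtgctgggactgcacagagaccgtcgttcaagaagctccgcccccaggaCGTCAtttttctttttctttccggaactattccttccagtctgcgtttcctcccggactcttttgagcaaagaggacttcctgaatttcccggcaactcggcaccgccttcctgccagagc

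Rcc1, chr4:132345701-132346000, minus strand: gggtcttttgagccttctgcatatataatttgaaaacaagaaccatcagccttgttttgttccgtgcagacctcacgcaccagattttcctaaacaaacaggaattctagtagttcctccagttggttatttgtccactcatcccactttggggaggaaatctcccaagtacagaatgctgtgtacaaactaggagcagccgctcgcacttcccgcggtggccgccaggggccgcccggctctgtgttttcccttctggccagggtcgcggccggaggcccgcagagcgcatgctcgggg

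The short form TGACG is present in 3 of the 4 windows and in 20.8% of 32851 mouse start regions of the same length. In Sec23a it is part of the longer TGACGTGG, which 0.676% of start regions hold. Herpud1 alone holds ATTGGNCCACG, found in 0.0365% of start regions, and a further CCAAT, a motif found in 37.4%. None of the 4 windows holds the full cAMP response element TGACGTCA (1.79% of start regions) or the first ER stress element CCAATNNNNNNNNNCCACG (0.119%). The GC box GGGCGG, in lower case here, lies in Sec23a, Rbm28 and Rcc1 and in 35.7% of start regions. The Rcc1 window holds no letters in capitals. The RefSeq starts of Rcc1 and Rbm28 lie inside the gene spans given above, downstream of the outermost annotated starts. The windows of these genes therefore do not show those other starts. These matches describe letters and not bound sites.

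Sec23a was lowest of all in knockout spermatids. It had 9.28 and 10.7 CPM there (162 and 186 counts), against 50.5 and 55.2 CPM in wild-type spermatids, which is 0.189 times the wild-type level (log2 -2.40 ± 0.09 SE). In spermatocytes the order was the other way round, with 88.8 and 83.9 CPM in those labelled knockout against 64.3 and 56.7 CPM in those labelled wild type (log2 0.51 ± 0.07). Neither pair of groups overlapped, and the log2 effect in spermatids minus that in spermatocytes was -2.92 ± 0.12. These values chose the gene, as they did the other members, and are given without a test.

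Herpud1 had 24.9 and 24.5 CPM in knockout spermatids, against 88.1 and 83.4 CPM in wild-type spermatids (log2 -1.80 ± 0.07, 0.288 times). Spermatocytes labelled knockout had 60.5 and 59.7 CPM and those labelled wild type 52.2 and 53.2 CPM (log2 0.19 ± 0.06). The spermatid groups were far apart and the spermatocyte groups close together without overlap, and the difference of effects was -1.99 ± 0.09. The small spermatocyte difference is sensitive to scaling and was 0.09 on total counts without TMM factors.

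Rbm28 had 16.6 and 15.1 CPM in knockout spermatids, against 58.7 and 60.6 CPM in wild-type spermatids (log2 -1.91 ± 0.08, 0.266 times). Spermatocytes labelled knockout had 37.1 and 37.5 CPM and those labelled wild type 40.3 and 40.1 CPM (log2 -0.11 ± 0.07). Rbm28 was thus lower with the knockout label in both cell types, by very different amounts, and the difference of effects was -1.81 ± 0.10. On total counts without TMM factors the spermatocyte difference was -0.20.

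Rcc1 had the smallest fall of the 4 genes. It measured 66.4 and 62.9 CPM in knockout spermatids, against 149 and 145 CPM in wild-type spermatids (log2 -1.19 ± 0.06, 0.439 times). Spermatocytes labelled knockout had 104 and 106 CPM and those labelled wild type 102 and 100.2 CPM (log2 0.05 ± 0.05, and -0.05 on total counts without TMM factors). The difference of effects was -1.24 ± 0.08. The noncoding gene Snhg3 overlaps Rcc1 on the same strand over 5592 bases, and the rule by which shared reads were counted is not given in the sources used here. Snhg3 had 5.67 and 5.79 CPM in knockout spermatids and 9.75 and 9.83 CPM in wild-type spermatids (log2 -0.77 ± 0.14, adjusted p = 2.74e-05 in edgeR). It did not pass in spermatocytes (log2 -0.03 ± 0.08, adjusted p = 0.761), and its difference of effects was -0.74 ± 0.16 (adjusted p = 0.00133). Antisense transcripts overlap Sec23a over 9629 bases and Herpud1 over 535 bases, so reads there are uncertain too, as the strand setting of the counting is not given.

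**Figure D1:**
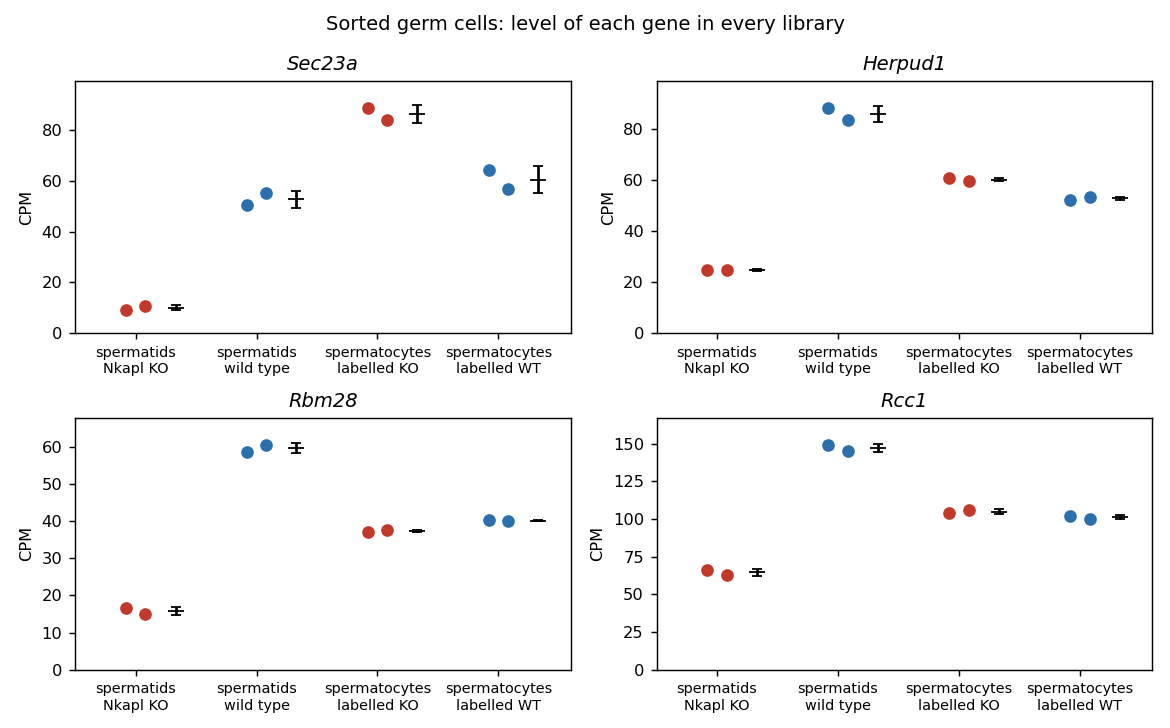
Level of each gene (CPM, linear axis from 0) in the 8 sorted libraries; points are libraries, red for the knockout label and blue for wild type, and bars give mean ± SD (n = 2). Knockout spermatids are the lowest group for all 4 genes, while the spermatocyte groups lie close together except for Sec23a, at 86.4 CPM labelled knockout and 60.5 CPM labelled wild type.

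The same values can be read along the path from spermatocyte to spermatid, though the sorted groups share markers. Round spermatid markers summed to 4577 and 4808 CPM in spermatocytes labelled wild type, against 306 to 409 CPM in wild-type testis of the Nkapl set. Pachytene spermatocyte markers summed to 2712 and 2715 CPM in wild-type spermatids. The part of mixed cells in the steps below was not tested. In libraries labelled wild type Herpud1, Rbm28 and Rcc1 were higher in spermatids than in spermatocytes (log2 0.70 ± 0.06, 0.57 ± 0.07 and 0.54 ± 0.05), and Sec23a was a little lower (-0.20 ± 0.07). In libraries labelled knockout all 4 genes were lower in spermatids, by -3.11 ± 0.09 for Sec23a, -1.28 ± 0.07 for Herpud1, -1.23 ± 0.08 for Rbm28 and -0.70 ± 0.06 for Rcc1. Scaling matters for the wild-type step. On total counts without TMM factors it was 0.37 for Herpud1, 0.24 for Rbm28, 0.21 for Rcc1 and -0.53 for Sec23a, while the median of all genes moved to -0.29 from 0.05. The Sec23a step was -0.31 without wild-type spermatid 2 and -0.10 without spermatocyte 1 labelled wild type.

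By F value of the difference of effects the 4 genes held places 2 to 5 among 15805 genes tested, behind Nkapl (-2.40 ± 0.09). The next genes were Leng8 (-1.02 ± 0.07), Lrrc71 (-1.04 ± 0.07) and Aamp (-0.97 ± 0.07). The rule that chose the 4 genes gives no numeric threshold. By size alone Sec23a held place 46, Herpud1 178, Rbm28 249 and Rcc1 783, so Herpud1, Rbm28 and Rcc1 combined smaller changes with small errors. Over all genes 9.02% were called higher and 16.4% lower in the difference of effects, with a median of -0.03. That split turns on scaling. Of the called genes 35.4% were higher with TMM, 50.5% with DESeq2's size factors and 78.9% on total counts, where the median of all genes was 0.18. Each of the 4 genes was below -1.02 under each of the settings tried.

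The 4 profiles were alike but not equal. Over the 8 sorted libraries, Herpud1 and Rbm28 lay 0.12 apart on the log2 scale (root mean square distance after centring each gene). Rcc1 lay 0.25 from Herpud1, and Sec23a was 0.72 to 0.91 from the other members. Among 10861 named genes with a mean log2 CPM of at least 1, the nearest to Sec23a were Mgat5 (0.27), a Golgi enzyme of N-glycan branching, Fbxo15 (0.30) and Nkapl itself (0.31). Nearest to Herpud1 were Rbm28 (0.12), Timm21 (0.16), a part of the mitochondrial import machinery, and the Mediator subunit gene Med30 (0.18). Timm21 (0.11), Herpud1 (0.12) and Med30 (0.16) were nearest to Rbm28. Nearest to Rcc1 were Sppl2a (0.07), an intramembrane protease, Cyth1 (0.12) and Bicd2 (0.13), a dynein adaptor. Mgat5 fell in knockout spermatids by a log2 effect of -2.30 and was 0.44 in spermatocytes, and Timm21 was -1.95 and -0.07. These genes were picked for their likeness, so their values are a description. No test was made.

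Paralogs of 3 of the genes had differences of effects between -0.31 and 0.10. Sec23b, which encodes the paralogous COPII coat protein, did not pass in spermatids (log2 0.10 ± 0.07, adjusted p = 0.234) or spermatocytes (0.11 ± 0.07, adjusted p = 0.193), and its difference of effects was -0.01 (95% interval -0.20 to 0.18, adjusted p = 0.949). Herpud2 fell in both cell types, to 33.9 and 35.3 CPM in knockout spermatids against 84.8 and 87.4 CPM in wild type (log2 -1.32 ± 0.07), and to 16.1 and 16.6 CPM in spermatocytes labelled knockout against 32.2 and 33.5 CPM in those labelled wild type (-1.01 ± 0.08). Its difference of effects was -0.31 ± 0.10 (adjusted p = 0.0265), a call lost with DESeq2 (-0.25, adjusted p = 0.211), on total counts (-0.10, adjusted p = 0.500) and without any 1 of the 4 spermatid libraries or either spermatocyte library labelled knockout. Rcc2, a paralog of Rcc1 known from the chromosomal passenger machinery, rose in both (0.58 ± 0.08 and 0.47 ± 0.06), with a difference of 0.10 (95% interval -0.08 to 0.29, adjusted p = 0.458).

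The neighbours of the 4 genes on their chromosomes were looked at after the members' values had been seen, taking the 2 nearest tested protein-coding genes on each side. Of these 16 genes 1 was called higher and 3 lower in the difference of effects, near the shares of all genes (9.02% and 16.4%). It ranged from -0.99 for Med18 to 1.17 for Prrt4, neither of them called. Gemin2, which starts 1376 bases from Sec23a on the other strand, had a difference of -0.40 ± 0.19 (adjusted p = 0.131). Phactr4, 2318 bases from Rcc1, had -0.48 ± 0.14 (adjusted p = 0.0141).

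In whole testis the 4 genes were not lower in the Nkapl knockout. Rcc1 had 41.4 and 43.9 CPM in knockout testis, against 34.2, 38.9 and 36.7 CPM in wild-type testis, without overlap. It rose by a log2 of 0.22 ± 0.06 (adjusted p = 0.00844, edgeR quasi-likelihood test, Benjamini-Hochberg over 16937 genes), and both knockout libraries lay above the 3 wild-type libraries. The call was lost without knockout library 2 (0.18, adjusted p = 0.124) and in a fit of all testis libraries (0.25, adjusted p = 0.0529). It held with the libraries whose heading and record name the same group (0.22, adjusted p = 0.0352). Grouped by file record it was 0.15 (adjusted p = 0.629), a grouping under which edgeR called 0 genes.

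Sec23a had 143 and 143 CPM in knockout testis, against 126, 137 and 137 CPM in wild type (log2 0.10 ± 0.04, adjusted p = 0.0634). Herpud1 had 46.7 and 48.9 CPM in knockout testis, against 43.7, 43.4 and 44.2 CPM in wild type (0.13 ± 0.05, adjusted p = 0.0564). Rbm28 had 63.2 and 70.8 CPM in knockout testis, against 59.2, 62.9 and 63.1 CPM in wild type (0.12 ± 0.05, adjusted p = 0.0808). In each of these 3 genes the groups did not overlap, by a narrow gap for Rbm28, but none passed over all genes. How many of all genes separate in this way was not counted, while 8540 of 16937 had an unadjusted p under 0.05. Without wild-type library 2, Sec23a (0.13, adjusted p = 0.0225) and Rbm28 (0.14, adjusted p = 0.0490) passed. Rbm28 also passed without knockout library 1 (0.20, adjusted p = 0.0158), and without knockout library 2 it was 0.03. With total counts in place of TMM all 4 passed, with the median of all genes at 0.07. So 1 of 4 was called, against 17.8% of all genes called higher and 26.1% lower. The upper ends of the 95% intervals were 0.19 to 0.34, and the lower ends were above 0 for each gene. The intervals use a normal quantile, which can make them too narrow for 2 against 3 libraries, and they are not adjusted over all genes. These intervals are for whole testis and do not decide on a fall confined to spermatids. In sorted wild-type spermatids the 18 round spermatid markers summed to 11420 to 11780 CPM. In these testes the 18 round spermatid markers summed to 79.7 and 81.4 CPM in the knockout, with up to 5 of them at 0, against 306 to 409 CPM in wild type. Their part in these values was not tested. Sertoli cell markers summed to 2132 and 2242 CPM in the knockout and 1709 to 1768 CPM in wild type, and 12 of 14 rose.

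None of the 4 genes passed in Sox30 knockout testis, with edgeR, DESeq2 or voom, and 0 had an unadjusted p under 0.05. Sox30 encodes a transcription factor of late meiotic and early haploid germ cells, and its own level was 44.7 and 61.5 CPM in the knockout, against 77.6, 86.2 and 72.4 CPM in wild type (log2 -0.57 ± 0.15, adjusted p = 0.171). Sox30 passed with DESeq2 (adjusted p = 0.0434), with all testis libraries in 1 fit (adjusted p = 0.0206) and with the replicate block (-0.64, adjusted p = 2.46e-07). Sec23a had 187 and 157 CPM in the knockout against 150, 145 and 164 CPM in wild type (log2 0.17 ± 0.11, adjusted p = 0.952), and the groups overlapped. Herpud1 (-0.01 ± 0.09), Rbm28 (0.25 ± 0.13) and Rcc1 (-0.15 ± 0.10) had adjusted p = 0.999, 0.792 and 0.995. Over all genes 0.505% were called higher and 1.92% lower, and 1552 of 17816 had an unadjusted p under 0.05. The 2 Sox30 knockout libraries differed from each other more than any other pair of 1 group did, at a chi-square of 44.6 per gene. The sum of round spermatid markers was 83.2 and 131 CPM in the Sox30 knockout and 272 to 694 CPM in its wild type.

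With the TGdel allele, Herpud1 had 50.5, 52.9 and 50.9 CPM, against 41.6 and 41.5 CPM in its wild type (log2 0.31 ± 0.08, adjusted p = 0.0968). The TGdel libraries all lay above the wild-type ones. Among the settings tried, Herpud1 passed only with all testis libraries in 1 fit (0.32, adjusted p = 0.0238). Sec23a (0.21 ± 0.09, adjusted p = 0.303) and Rcc1 (0.23 ± 0.09, adjusted p = 0.233) did not overlap with wild type either, and Rbm28 did (0.10 ± 0.11, adjusted p = 0.728). The share of all genes whose groups separate was not counted here either. None of the 4 passed with edgeR, DESeq2 or voom in a fit of this set, while 3 had an unadjusted p under 0.05. The background was 0.2% of genes called higher and 1.05% lower, and 2476 of 16011 genes had an unadjusted p under 0.05. Grouped by file record, which moves TGdel 3 to the wild type and wild type 2 to TGdel, Herpud1 was 0.06, Sec23a -0.01, Rbm28 -0.06 and Rcc1 -0.0006. In TGdel testis the round spermatid markers summed to 111 to 233 CPM, against 273 and 378 CPM in its wild type.

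Differences between these testis effects were fitted over all testis libraries. The Nkapl knockout effect minus the Sox30 knockout effect was 0.39 ± 0.12 for Rcc1 (adjusted p = 0.0894, unadjusted p = 0.00485), and the remaining members were -0.04 ± 0.13 (Sec23a), 0.17 ± 0.09 (Herpud1) and -0.10 ± 0.17 (Rbm28). None passed in edgeR, DESeq2 or voom, with 1 at an unadjusted p under 0.05. Over all genes 0.283% were called higher and 3.55% lower, and 2949 of 17647 had an unadjusted p under 0.05. The TGdel effect minus the Nkapl knockout effect was between -0.03 and 0.16, with 0 of the 4 passing in edgeR, DESeq2 or voom and 0 at an unadjusted p under 0.05. There 0.266% of genes were called higher and 0.0283% lower, and 3352 of 17647 had an unadjusted p under 0.05. The widest 95% interval, that of Rbm28, ran from -0.37 to 0.30.

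**Figure D2:**
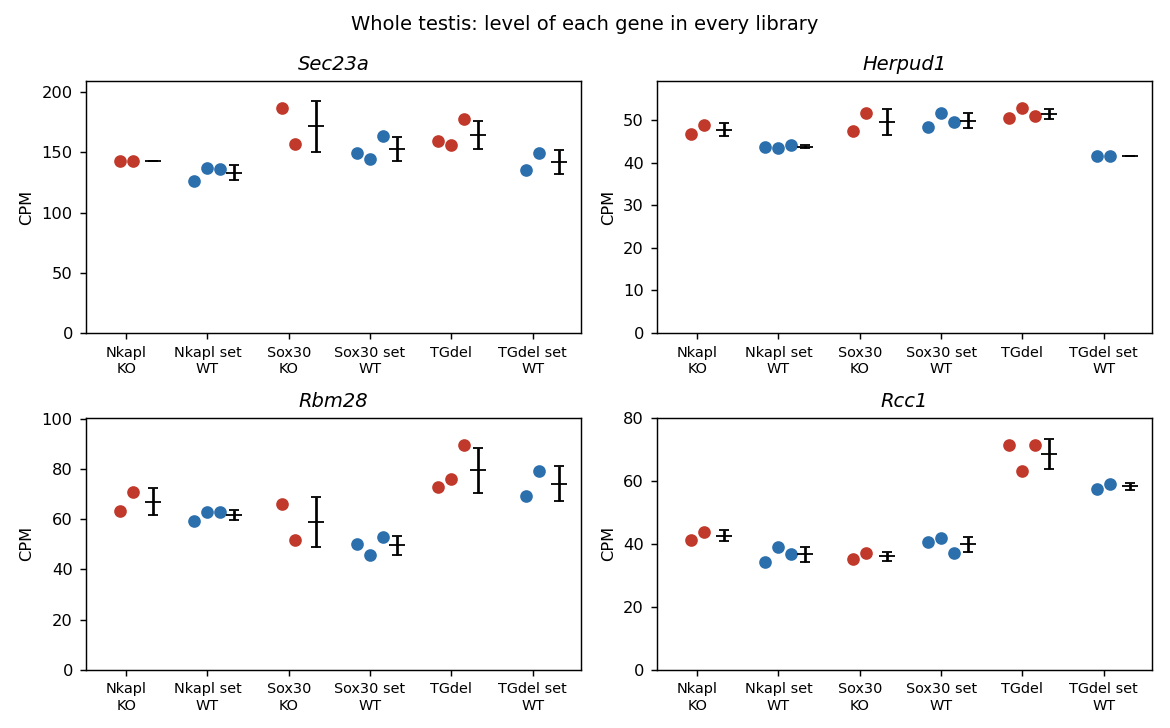
Level of each gene (CPM, linear axis from 0) in the 15 testis libraries; points are libraries, red for the mutant and blue for the wild type of its own set, and bars give mean ± SD (n = 2 or 3). No mutant group lies far below its wild type for any of the 4 genes, and Rcc1 stands higher in the TGdel set, at 68.6 CPM in TGdel and 58.3 CPM in its wild type, than in the others.

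**Figure D3:**
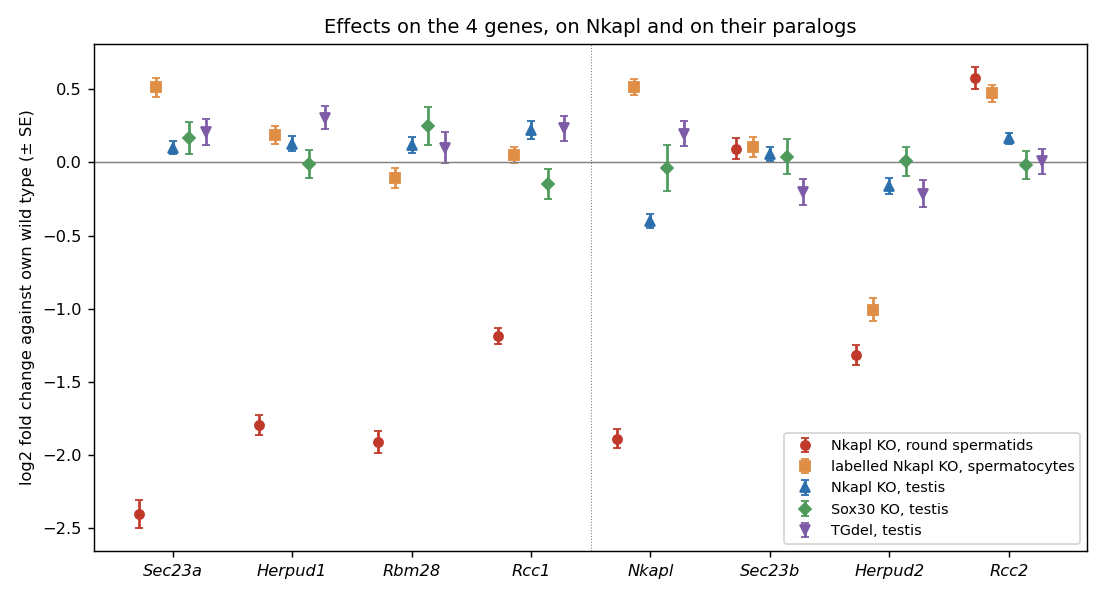
Log2 fold changes (± SE) of the 4 genes, of Nkapl and of the paralogs Sec23b, Herpud2 and Rcc2 in 5 comparisons, each against its own wild type. For the 4 genes the spermatid effects, from -2.40 to -1.19, lie far below the other effects, while Herpud2 is low in both sorted cell types.

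Set on one scale for all 23 libraries and per kilobase of exon, the order of levels differed between the genes, and levels from separately made sets may also differ through their preparation. Sec23a was lowest in knockout spermatids (2.85 ± 0.27 CPM per kilobase, SD) and next in wild-type spermatids (14.5 ± 0.83). It was 16.9 ± 1.38 in spermatocytes labelled wild type and 22.0 ± 0.88 in those labelled knockout, which overlapped the wild-type testis of the Nkapl set. The 6 testis groups ran from 23.6 to 30.3, each overlapping the next in order. Rcc1 had its 4 highest groups in the sorted cells, at 23.2 ± 0.92 in knockout spermatids, 33.5 ± 0.55 in spermatocytes labelled knockout, 35.4 ± 0.27 in those labelled wild type and 50.7 ± 1.24 in wild-type spermatids, with no overlap between neighbours. Its testis groups were between 7.98 and 15.7. Herpud1 was highest in wild-type spermatids (48.7 ± 2.13), followed by both spermatocyte groups (31.7 ± 0.31 labelled knockout and 30.4 ± 0.60 labelled wild type), and knockout spermatids (14.6 ± 0.19) were below all testis groups (15.4 to 19.5). Rbm28 was also highest in wild-type spermatids (13.8 and 14.1) and lowest in knockout spermatids (3.87 ± 0.25), with overlap among most groups between.

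The remaining genes of each member's pathway were counted from lists that leave out the 4 genes. Adjusted p under 0.05 was reached by 29% of all genes as higher and 31% as lower in knockout spermatids (median 0.03). In spermatocytes labelled knockout the shares were 33.6% and 25.7% (median 0.07). Among 24 genes of the COPII coat and ER exit, 8 rose and 9 fell in knockout spermatids (median 0.01), and 10 rose and 4 fell in spermatocytes labelled knockout (median 0.14). The cargo receptor subunit gene Mcfd2 rose in both cell types (0.97 ± 0.10 and 0.92 ± 0.07), as did the SNARE gene Sec22b (0.76 ± 0.10 and 0.61 ± 0.08). Ergic1, a cycling protein of the ER-Golgi intermediate compartment, fell by 1.11 ± 0.08 on the log2 scale in spermatids. In spermatocytes labelled knockout Ergic1 was at -0.64. Tmed10, a cargo receptor, rose by 0.49 ± 0.06 in spermatocytes labelled knockout and was at 0.14 in knockout spermatids. In the difference of effects, where 9.02% of all genes were called higher and 16.4% lower (median -0.03), 1 gene was higher and 6 lower. The GTPase gene Sar1b, whose product recruits the Sec23 coat, was at -0.69 ± 0.16 (adjusted p = 0.00264), and Ergic1 was at -0.47 ± 0.12. Sar1b lost its call with DESeq2 (adjusted p = 0.0512) and without wild-type spermatid 1 (edgeR, adjusted p = 0.0616), and Ergic1 with DESeq2 (adjusted p = 0.081), on total counts (adjusted p = 0.107) and without spermatocyte 2 labelled knockout (adjusted p = 0.0809).

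Among 44 tested genes of the ER stress response and ER-associated degradation, 21 rose and 12 fell in knockout spermatids (median 0.12), and 27 rose and 7 fell in spermatocytes labelled knockout (median 0.23). Herpud2 (above), the ubiquitin-conjugating enzyme gene Ube2j1 (-0.75 ± 0.05) and Creb3l4, an ER-bound transcription factor of spermatids (-0.61 ± 0.05), fell in spermatids. In spermatocytes labelled knockout Ube2j1 was at -0.41 and Creb3l4 at -0.61. Syvn1, the ligase of the same degradation complex as Herpud1, rose to 183 ± 2.05 CPM in spermatocytes labelled knockout (SD, n = 2), against 69.7 ± 4.21 CPM in those labelled wild type (log2 1.39 ± 0.06). The ER chaperone gene Hyou1 rose there by 0.74 ± 0.05. In knockout spermatids Syvn1 was at 0.81 and Hyou1 at 0.51. In the difference of effects 5 genes were higher and 13 lower. Ppp1r15a, the stress-induced phosphatase subunit, was at 1.18 ± 0.20 (adjusted p = 6.3e-05), Nploc4, a cofactor of the extraction ATPase, was at 0.35 ± 0.06, and Syvn1 was at -0.59 ± 0.10.

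Among 70 ribosome biogenesis genes, 37 rose and 5 fell in knockout spermatids (median 0.26), and 52 rose and 2 fell in spermatocytes labelled knockout (median 0.32). Urb1 rose in spermatids (0.68 ± 0.06) and spermatocytes (1.13 ± 0.05). Ddx51 rose in spermatids (1.32 ± 0.09) and was at 0.60 in spermatocytes labelled knockout. Npm1, which encodes the nucleolar protein nucleophosmin, rose by 0.47 ± 0.05 in spermatids and was at 0.49 in spermatocytes labelled knockout. Imp4 (1.16 ± 0.07) and Urb2 (0.56 ± 0.05) rose in spermatocytes and were at 0.78 and 0.28 in knockout spermatids. In the difference of effects 3 were higher and 16 lower, with Ddx51 at 0.72 ± 0.11, Urb1 at -0.45 ± 0.08 and the nucleolar GTPase gene Gnl2 at -0.58 ± 0.10.

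Among 33 genes of the Ran cycle and nuclear transport, 14 rose and 9 fell in knockout spermatids (median 0.09), and 22 rose and 3 fell in spermatocytes labelled knockout (median 0.26). Rangap1, which encodes the GTPase activator opposite to Rcc1 in the cycle, fell in both. It measured 113 ± 1.98 CPM in knockout spermatids against 247 ± 0.28 CPM in wild type (log2 -1.13 ± 0.05), and 75.2 ± 1.14 CPM in spermatocytes labelled knockout against 112 ± 0.28 CPM in those labelled wild type (-0.57 ± 0.05). The importin gene Ipo5 fell by 0.53 ± 0.04 in spermatids, and the adaptor gene Snupn rose by 0.82 ± 0.07. In spermatocytes labelled knockout Ipo5 was at -0.16 and Snupn at 0.60. In spermatocytes Tnpo3 (0.73 ± 0.06) and the pore protein gene Ranbp2 (0.71 ± 0.07) rose, and in knockout spermatids they were at 0.65 and 0.57. In the difference of effects 1 was higher and 12 lower, among them Ipo7 (-0.86 ± 0.11), Rangap1 (-0.56 ± 0.07) and Ipo5 (-0.37 ± 0.06).

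These counts move with scaling and with single libraries, and so do the counts over all genes. With DESeq2's size factors in edgeR the genes lower in the difference of effects were 4 of COPII, 8 of ER stress, 9 of ribosome biogenesis and 6 of Ran. On total counts they were 1, 3, 4 and 4, and 4, 10, 18 and 7 were then higher. Over all genes 1426 were higher and 2599 lower in the difference of effects with TMM. With DESeq2's size factors 1941 were higher and 1902 lower, and on total counts 3725 were higher and 995 lower. Also on total counts, 4 COPII, 7 ER stress and 2 ribosome genes fell in knockout spermatids, and 7 COPII and 6 Ran genes fell in spermatocytes labelled knockout. Of all genes 3942 then fell in knockout spermatids, against 4903 with TMM. In spermatocytes labelled knockout 4816 fell, against 4059 with TMM. Leaving out any 1 of the 4 spermatid libraries brought the lower counts to between 1 and 3 for COPII, 7 and 8 for ER stress, 6 and 9 for ribosome biogenesis and 4 and 6 for Ran. Without spermatocyte 1 labelled knockout 8 ribosome genes were lower, and without spermatocyte 2 labelled knockout 8 ER stress, 10 ribosome and 7 Ran genes were lower. In spermatids, without wild-type library 1, 4 COPII, 13 ER stress and 23 ribosome genes rose, without knockout library 1, 24 ribosome genes rose, and without knockout library 2, 5 COPII genes rose. In spermatocytes, 7 COPII and 6 Ran genes fell without either wild-type spermatid library, and 0 ribosome genes fell without either library labelled knockout and 1 without library 2 labelled wild type.

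**Figure D4:**
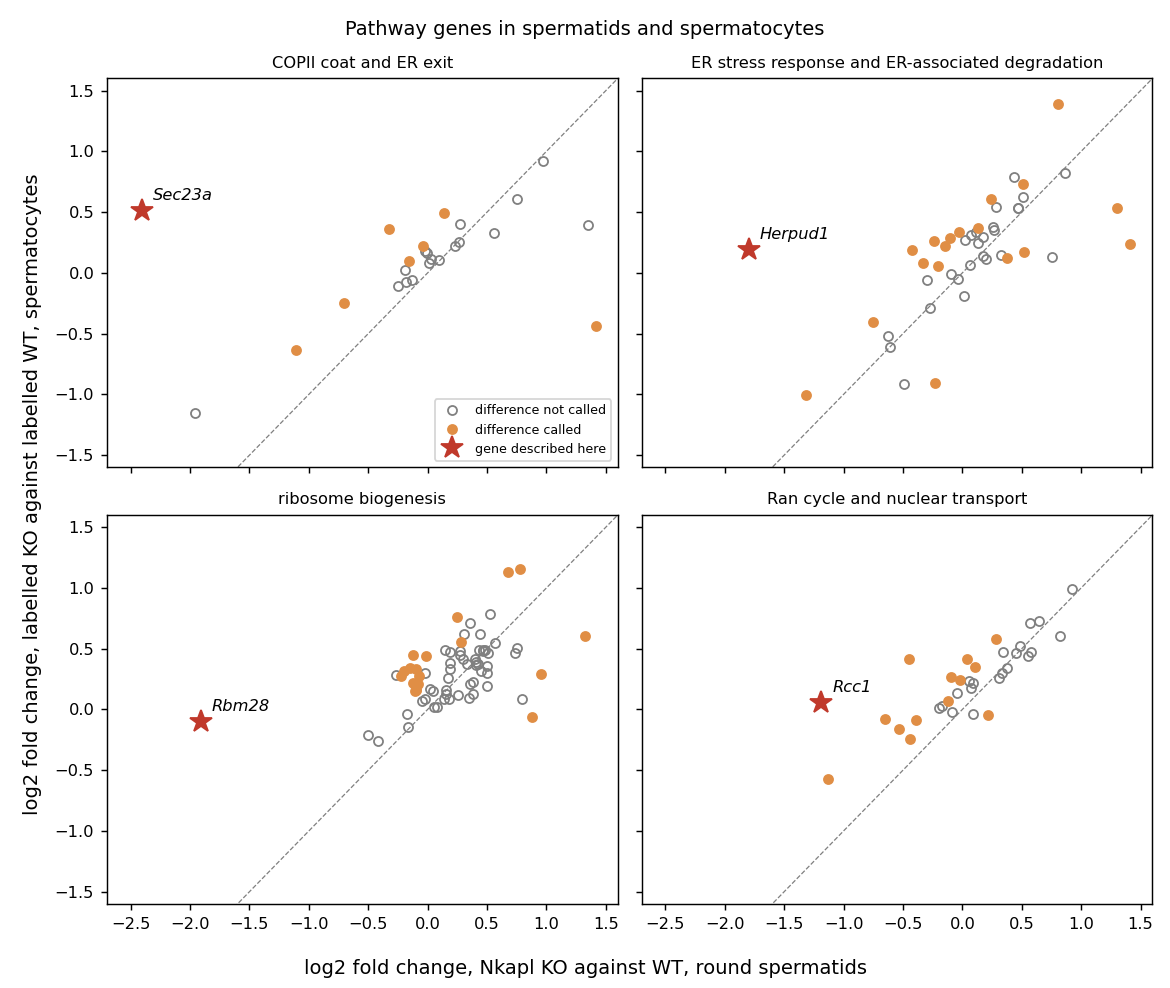
Log2 fold change in knockout against wild-type spermatids (x) and in spermatocytes labelled knockout against those labelled wild type (y) for the genes of 4 pathway lists; filled points passed the test of the difference, and stars are Sec23a, Herpud1, Rbm28 and Rcc1. The stars were chosen by these values and serve as landmarks. The dashed line marks equal effects, and Herpud2 lies low on both axes (-1.32 and -1.01).

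In Nkapl knockout testis, where 17.8% of all genes rose and 26.1% fell, 6 of 24 COPII genes rose and 4 fell (median 0.03, all genes 0.01), 12 of 45 ER stress genes rose and 14 fell (0.06), 25 of 70 ribosome biogenesis genes rose and 5 fell (0.09), and 7 of 33 Ran genes rose and 10 fell (-0.02). Creb3l4 fell most among the named ones (-1.89 ± 0.15), with Mia3, a cargo receptor at ER exit sites, at -0.42 ± 0.04, Sec24b at -0.19 ± 0.04 and Ube2j1 at -0.41 ± 0.04. The importin genes Kpna2 (-0.46 ± 0.04), Kpna6 (-0.43 ± 0.04) and Ipo4 (-0.37 ± 0.04) fell, as did Nop14 (-0.44 ± 0.05) and Nop9 (-0.33 ± 0.04). Syvn1 (0.54 ± 0.04), Urb1 (0.34 ± 0.04) and Ergic1 (0.24 ± 0.05) rose. In a fit of all testis libraries Ergic1, Ipo4, Nop9 and Sec24b did not pass (adjusted p = 0.0618, 0.0817, 0.0757 and 0.394), and 2, 4, 8 and 0 genes of the lists rose and 1, 4, 1 and 3 fell. Of all genes 833 rose and 2518 fell in that fit, against 3013 and 4420 in the fit of the Nkapl set alone. Without knockout library 1, 2 COPII genes rose, and without knockout library 2, 7 ER stress genes fell and 16 ribosome genes rose. Without wild-type library 3 or either knockout library 3 Ran genes rose. On total counts 4605 of all genes rose, against 3013 with TMM. Of the lists 10 COPII, 19 ER stress, 39 ribosome and 14 Ran genes then rose. Grouped by file record none of these genes passed.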

How the data were processed

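Each deposited file lists unnormalized counts by gene symbol, which the authors made, per the submitters' processing notes, with HISAT2 2.1.0, HTSeq, DESeq2 and mm10, without a statement of each one's step. The sources used here do not give the annotation, strand setting or treatment of shared reads. Per the labels, libraries were stranded total RNA from a TruSeq kit. The 26 files hold 23 libraries, since 3 repeat another file's counts, and libraries were grouped by column heading. HTSeq summary lines, 18.8% to 24.6% of the sorted files, entered neither library sizes nor tests.

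The 8 sorted libraries were fitted together and each testis set alone with edgeR 4.0.16 (filterByExpr, TMM, quasi-likelihood test, two-sided, Benjamini-Hochberg adjusted p under 0.05 over all genes). Adjusted p-values without a named tool come from that test. The design had assumed 3 libraries against 3 in testis. Standard errors were taken from the fold change and its F value, and fold changes are mutant over wild type. The fits were tested on simulated counts. Alternatives were DESeq2 1.42.0, limma voom 3.58.1, other scaling and filters, the replicate block, and each library left out.

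The 4 genes, the lists and the rule for named genes were chosen with earlier results of these data known. The rule names the 4 genes, Nkapl, Sox30 and paralogs, up to 3 called genes with the smallest p per pathway list and comparison, and the 3 nearest profiles per member. Snhg3 and the chromosome neighbours were added after values were seen.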

Additional observations from a re-analysis of the deposited data

Results flagged for a closer look

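The members Sec23a, Herpud1 and Rcc1 were lower in each knockout spermatid library and higher in each spermatocyte library labelled knockout than in the wild-type libraries of the same cell type, with differences of the log2 effects of -2.92, -1.99 and -1.24. As these values chose the genes, the differences were not tested. The share of all genes with this opposite pattern was not counted. For Rcc1 the spermatocyte side turned to -0.05 on total counts. It also turned without the filter on low counts and with spermatocytes fitted alone. On one scale for all 23 libraries Rcc1 had 33.5 CPM per kilobase in spermatocytes labelled knockout and 35.4 in those labelled wild type, without overlap.

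Among Nkapl, Sox30, the paralogs, Snhg3 and the named pathway genes, 22 had knockout effects that differed between the cell types by the test of the difference itself (edgeR, adjusted p under 0.05). Many of the pathway genes were named for a small p in this same test, so their call was fixed by the choice. The count is therefore a description. Over all genes 9.02% were called higher and 16.4% lower in this difference. The knocked-out gene Nkapl was at -2.40, with a rise in spermatocytes labelled knockout. These are differences of knockout effects and not of levels between the cell types. The knockout effect was lower in spermatids than in spermatocytes for Ipo7 (-0.86), Snhg3 (-0.74), Sar1b (-0.69), Syvn1 (-0.59), Gnl2 (-0.58), Rangap1 (-0.56), Ergic1 (-0.47), Urb1 (-0.45), Imp4 (-0.38), Ipo5 (-0.37), Tmed10 (-0.35), Ube2j1 (-0.34), Sox30 (-0.32), Herpud2 (-0.31), Urb2 (-0.28), Hyou1 (-0.22) and Ipo4 (-0.20). It was higher for Ppp1r15a (1.18), Ddx51 (0.72), Nploc4 (0.35) and Kpna2 (0.26). Of the 22, 10 lost the call in at least 1 setting or with 1 library left out: Sar1b, Ergic1, Imp4, Tmed10, Ube2j1, Sox30, Herpud2, Urb2, Hyou1 and Ipo4.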

How the results depend on the processing

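Values are log2 differences. On total counts without TMM factors, the spermatid effects of Herpud1, Rbm28 and Rcc1 were -1.68, -1.80 and -1.08, their spermatocyte effects 0.093, -0.20 and -0.047 (the last with its sign turned), and the differences of effects -1.78, -1.597 and -1.03. The step from spermatocyte to spermatid was then -1.41, -1.36 and -0.82 in knockout, and 0.37, 0.24 and 0.21 in wild type, with Sec23a at -0.53. In Nkapl knockout testis Sec23a (0.17), Herpud1 (0.19) and Rbm28 (0.19) then passed. With DESeq2's size factors, in edgeR and in DESeq2 alike, the spermatocyte effects were 0.15, -0.15 and 0.011, the Herpud1 difference of effects -1.92, and the knockout step -1.21 for Herpud1 and -0.62 for Rcc1. Without the filter on low counts the spermatocyte effects were 0.12, -0.18 and -0.021 (Rcc1 turned), the wild-type step 0.64, 0.51 and 0.48, and Sec23a passed in Nkapl testis (0.11). With spermatocytes fitted alone the effects were 0.11, -0.18 and -0.025 (Rcc1 turned). With all testis libraries in 1 fit Rcc1 in Nkapl testis (0.25) lost its call and Herpud1 in TGdel testis (0.32) gained one, and grouped by file record Rcc1 was 0.15 and lost it. The difference of effects of Ipo4 turned to 0.013 on total counts and lost its call. Those of Hyou1 (-0.016), Urb2 (-0.073), Herpud2 (-0.10), Sox30 (-0.11), Ube2j1 (-0.135), Tmed10 (-0.139), Imp4 (-0.17) and Ergic1 (-0.26) also lost the call there. The cause was not tested.

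Leaving out 1 library in turn gave spermatid effects of -1.86 to -1.78 for Herpud1 and -1.25 to -1.16 for Rcc1, and spermatocyte effects of 0.12 to 0.20 for Herpud1, -0.18 to -0.10 for Rbm28 and -0.022 to 0.070 for Rcc1. Differences of effects were -2.003 to -1.90 for Herpud1, -1.82 to -1.68 for Rbm28 and -1.26 to -1.14 for Rcc1. The wild-type step was 0.61 to 0.71, 0.49 to 0.57 and 0.47 to 0.55 in the same order. In Nkapl testis the ranges were 0.072 to 0.13 for Sec23a, 0.035 to 0.20 for Rbm28 and 0.18 to 0.27 for Rcc1.

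The labels do not say that same-numbered libraries share anything else, and with 2 pairs a set they were not treated as pairs. Their deviations correlated at -0.006 in spermatids, 0.038 in spermatocytes and 0.040, 0.299 and -0.062 in the Nkapl, Sox30 and TGdel testis sets. With the replicate block Rcc1 in Nkapl testis was 0.22 (adjusted p = 0.0206, edgeR), and no member changed its side of the threshold. Sox30 in Sox30 testis passed with the block (-0.64, adjusted p = 2.46e-07). Over all genes the block gave 358 higher and 1370 lower in Sox30 testis, against 90 and 342 without it, and 0 and 0 in TGdel testis, against 32 and 168.

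Groups of 2 or 3 libraries limit the testis comparisons, and 162 to 186 counts limit Sec23a in knockout spermatids.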
